A study of Mus musculus with 2 samples.

Results

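The 44 genes described here encode the core machinery of DNA replication. They were chosen by symbol for the known roles of their products out of the 32285 genes counted in these data, and all 44 were found. They fall into 10 role groups, which are origin licensing (Orc1, Orc6, Cdc6 and Cdt1), the MCM helicase (Mcm2, Mcm3, Mcm4, Mcm5, Mcm6 and Mcm7), helicase activation (Mcm10, Cdc45, Gins1, Gins2, Gins3 and Gins4), primase and polymerase alpha (Pola1, Pola2, Prim1 and Prim2), polymerases delta and epsilon (Pold1, Pold2, Pold3, Pole and Pole2), the sliding clamp and its loader (Pcna, Pclaf, Rfc1, Rfc2, Rfc3, Rfc4 and Rfc5), single-strand binding (Rpa1, Rpa2 and Rpa3), Okazaki fragment maturation (Fen1 and Lig1), nucleotide supply (Rrm1, Rrm2, Tyms, Tk1 and Dut) and chromatin assembly (Chaf1a and Chaf1b). The data are single-cell transcriptomes of dissociated cells from the dorsal telencephalon, which becomes the cerebral cortex, of mouse embryos labelled WT at embryonic day 16.5. The 2 libraries, WT replicate 1 and WT replicate 6, form 1 group, and the Emx1Dot cKO embryos that the design also names were not analysed here. The study names the embryos' background as C57BL6/J, and whether the WT embryos carried a Cre or a floxed allele is not given in the sources used here. Every comparison is between classes of cells within these libraries. P-values rest on the spread between only 2 libraries, estimated with information from all genes tested. The main fits did not pair the classes of a library.

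DNA replication starts at origins, where the origin recognition complex with Cdc6 and Cdt1 loads the ring-shaped MCM helicase in the G1 phase of the cell cycle. In S phase Cdc45 and the GINS complex activate the helicase, polymerase alpha-primase lays down primers, and polymerases epsilon and delta extend them on the PCNA clamp, which replication factor C loads. In the developing cortex, radial glia divide at the ventricle and give rise to intermediate progenitors and excitatory neurons, interneurons come from progenitors of the ganglionic eminences, and neurons of both kinds have left the cell cycle.

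The libraries held 14136 and 13046 barcodes called as cells, with 74930397 and 68964234 unique molecular identifiers (UMIs, which count captured mRNA molecules). After a filter on depth (1500 to 60000 UMIs) and on the mitochondrial share (below 10%), and without likely doublets, there remained 7219 and 7352 cells. The libraries shared 59 barcodes as deposited, 18 of them among the cells used. Cells were placed in 15 classes by marker UMIs, none of them of a replication gene, and the gate thresholds were set after the data had been seen. Cells that passed no gate or several gates entered no class and no comparison. They were 2868 and 2801 cells, or 39.7 and 38.1% of those used. Radial glia comprised 232 and 232 cells, intermediate progenitors 307 and 336, eminence progenitors 213 and 211, newborn excitatory neurons 831 and 940, layer excitatory neurons 921 and 969, and interneurons 728 and 760. Of the markers kept out of the gates, 7 of 7 for radial glia and 4 of 4 for intermediate progenitors were over 2-fold above all other cells in both libraries. For eminence progenitors and for layer excitatory neurons this held for 3 of 5 each. For newborn excitatory neurons it held for 1 of 4, without Neurod6, Plxna4 and Cntn2, so that class is defined by its gate markers alone.

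Progenitors were further split by 22 S-phase genes and 37 G2/M genes, none of them among the 44. The limit of a list was the 90th percentile of layer excitatory neurons, with at least 3 of its UMIs. Cells past a limit were placed in the S range or the G2/M range if that list also led. Cells past no limit were placed in neither. Cells past a limit whose list did not lead entered no range. They were 9 and 16 radial glia, 14 and 15 intermediate progenitors and, in WT replicate 1, 5 eminence progenitors. These are ranges of a score and not cell types, and 285 of 1107 cortical progenitors (25.75%) lay near a limit, between 0.8 of it and the inverse multiple.

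Promoter sequences are shown for 6 members because replication genes are textbook targets of the E2F transcription factors, and because the levels of these 6 moved differently between the S and G2/M ranges. The windows run from 250 bases before to 50 bases after a start site, come from RefSeq (GRCm38.p6) and are written 5′ to 3′ on the strand of the gene. Capitals mark matches on either strand to the E2F spellings TTTCCCGC, TTTCGCGC, TTTGCCGC and TTTGGCGC.
Cdc6 (ENSMUSG00000017499, chr11:98907901-98908200, plus strand): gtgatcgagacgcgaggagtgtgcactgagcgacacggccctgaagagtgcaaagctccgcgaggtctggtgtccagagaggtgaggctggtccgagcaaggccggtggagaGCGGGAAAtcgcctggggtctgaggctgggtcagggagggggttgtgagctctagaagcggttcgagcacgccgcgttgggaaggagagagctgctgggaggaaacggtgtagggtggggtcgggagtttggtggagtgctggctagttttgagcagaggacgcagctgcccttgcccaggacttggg
Cdt1 (ENSMUSG00000006585, chr8:122567765-122568064, plus strand): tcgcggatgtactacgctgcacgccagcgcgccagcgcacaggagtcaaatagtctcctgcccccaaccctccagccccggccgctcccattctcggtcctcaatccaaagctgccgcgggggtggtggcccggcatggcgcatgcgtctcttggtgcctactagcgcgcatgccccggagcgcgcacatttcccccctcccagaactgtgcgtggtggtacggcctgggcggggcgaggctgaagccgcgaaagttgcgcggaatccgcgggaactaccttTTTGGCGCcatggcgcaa
Mcm6 (ENSMUSG00000026355, chr1:128359656-128359955, minus strand): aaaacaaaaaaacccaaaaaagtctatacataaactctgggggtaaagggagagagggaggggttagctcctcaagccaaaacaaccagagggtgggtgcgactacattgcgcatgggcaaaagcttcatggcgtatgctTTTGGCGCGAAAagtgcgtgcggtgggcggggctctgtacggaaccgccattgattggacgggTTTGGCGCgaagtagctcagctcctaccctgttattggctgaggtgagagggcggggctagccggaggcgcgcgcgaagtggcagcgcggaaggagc
Pclaf (ENSMUSG00000040204, chr9:65890073-65890372, plus strand): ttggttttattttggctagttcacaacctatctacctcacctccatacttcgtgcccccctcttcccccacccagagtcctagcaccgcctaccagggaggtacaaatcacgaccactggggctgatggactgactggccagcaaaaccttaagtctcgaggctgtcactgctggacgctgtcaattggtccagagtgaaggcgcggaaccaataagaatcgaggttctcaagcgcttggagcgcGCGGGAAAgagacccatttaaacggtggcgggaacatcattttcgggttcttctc
Pcna (ENSMUSG00000027342, chr2:132253131-132253430, minus strand): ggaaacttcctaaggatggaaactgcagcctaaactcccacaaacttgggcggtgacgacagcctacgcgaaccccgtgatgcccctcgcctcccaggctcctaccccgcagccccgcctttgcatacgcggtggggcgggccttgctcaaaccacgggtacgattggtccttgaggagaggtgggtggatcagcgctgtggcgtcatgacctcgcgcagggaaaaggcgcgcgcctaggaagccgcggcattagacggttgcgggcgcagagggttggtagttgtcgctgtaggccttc
Rrm2 (ENSMUSG00000020649, chr12:24708004-24708303, plus strand): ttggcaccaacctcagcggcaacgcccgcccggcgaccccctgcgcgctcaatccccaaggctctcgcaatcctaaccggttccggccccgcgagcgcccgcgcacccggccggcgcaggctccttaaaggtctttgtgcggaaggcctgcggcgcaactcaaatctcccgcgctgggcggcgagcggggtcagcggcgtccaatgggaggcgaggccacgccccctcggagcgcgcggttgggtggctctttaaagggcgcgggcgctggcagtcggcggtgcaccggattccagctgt
The match of Cdc6 began 138 bases upstream of the start site, that of Pclaf 5 bases upstream and that of Cdt1 32 bases downstream. Mcm6 held 3 matches, at 110, 106 and 47 bases upstream, of which the first pair overlap. The windows of Pcna and Rrm2 held none. Of the 37 members with a window, 15 (40.5%) held at least 1 match, against 3.01% of the 20267 counted genes with a window. Many counted genes are not expressed here. Among 8311 genes outside the 44 with a window and enough UMIs to be tested between the S and G2/M ranges, the share was 5.02%. The CCAAT box, searched as CCAAT on either strand, was found for 62.2% of the members with a window, 41.7% of all counted genes and 44% of those 8311. A match describes letters in a window and not a binding site. Mcm4, Gins1, Gins2, Gins4, Prim2, Pole and Rfc2 had no window.

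Across all classes the replication genes were highest in eminence progenitors and lowest in erythroid cells. Levels are given as CPM, the UMIs of a gene out of 1000000 UMIs of the class, with WT replicate 1 before WT replicate 6. Summed over the 44 members, eminence progenitors stood at 4856 and 5483 CPM (5169 ± 443, SD, n = 2 libraries). Radial glia followed at 2601 and 2732 CPM (2667 ± 93.2) and intermediate progenitors at 2159 and 2046 CPM (2103 ± 80.0). The libraries of these 3 classes did not overlap. Oligodendrocyte precursors, with 33 and 22 cells, reached 3326 and 2417 CPM and overlapped radial glia.

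Among neurons, layer excitatory neurons had 724.5 and 699.3 CPM (711.9 ± 17.9) and newborn excitatory neurons 777.9 and 782.0 CPM (779.9 ± 2.88), without overlap. Striatal neurons (891 and 886 CPM), interneurons of the medial eminence type (816 and 827 CPM) and Cajal-Retzius cells (814 and 794 CPM) lay close above them. Interneurons of the caudal eminence type stood higher, at 1808 and 1610 CPM, and overlapped microglia at 1807 and 1588 CPM. Without cells past the limits of the S or G2/M list, the caudal type stood at 807 and 824 CPM. The medial type then stood at 779 and 808 CPM, overlapping it, and microglia at 569 and 690 CPM. The ratio between the libraries was largest in endothelial cells, at 801 and 1606 CPM from 69 and 44 cells. Erythroid cells, whose RNA is mostly globin, had 216 and 237 CPM.

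**Figure D1:**
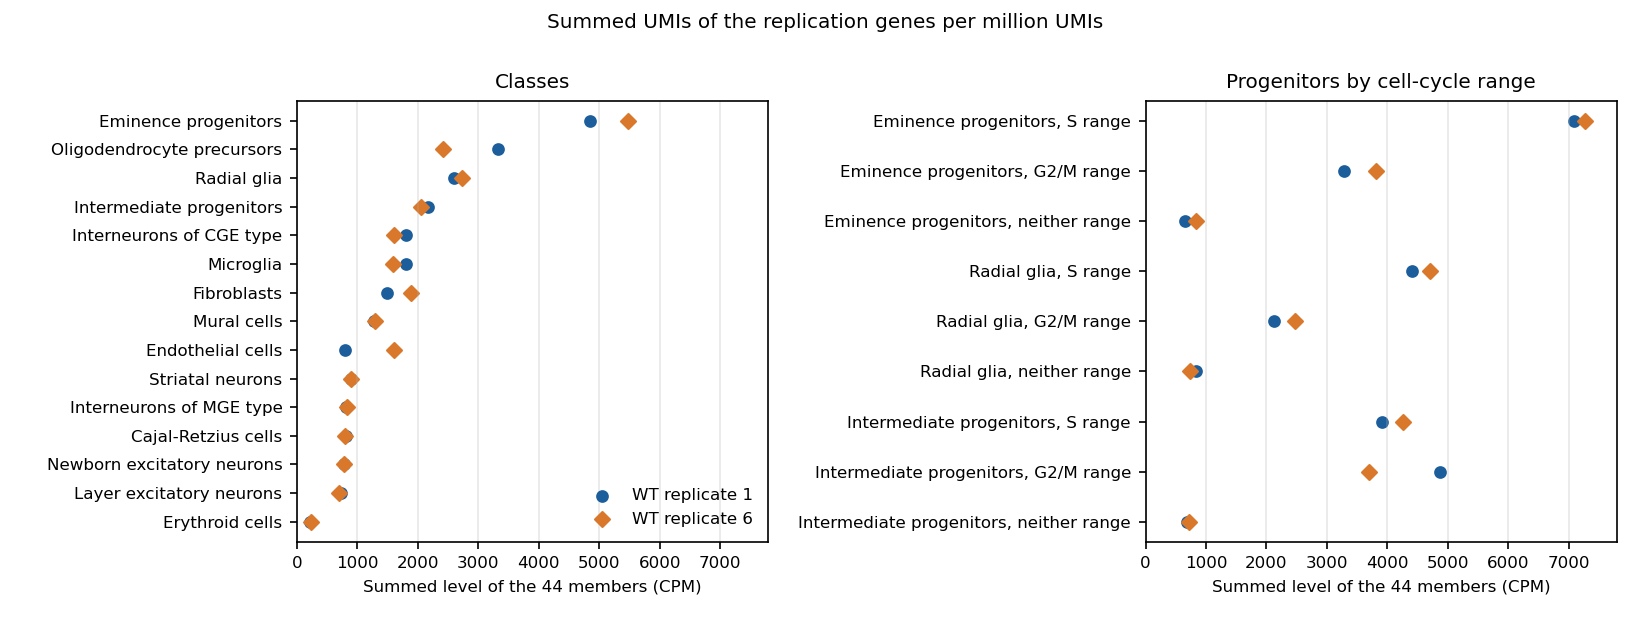
Summed level of the 44 replication genes in CPM for each of the 15 classes (left) and for progenitors by cell-cycle range (right), 1 point per library. Eminence progenitors lie highest among the classes, at 4856 and 5483 CPM.

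In single cells thinned to 2000 UMIs each, radial glia showed a mean of 4.30 and 3.97 of the 44 members, eminence progenitors 7.08 and 7.61, intermediate progenitors 3.15 and 3.05 and layer excitatory neurons 1.41 and 1.35. Radial glia thus showed 3.05 and 2.93 times as many members as layer excitatory neurons at equal depth. Without thinning the means were 13.7 and 13.2 in radial glia and 5.99 and 5.41 in layer excitatory neurons. Free RNA was measured by genes that neurons should lack. Globins, C1q genes, fibroblast collagens and endothelial genes stood in layer excitatory neurons at 2.19 to 10.59% of their level in the whole library. The upper end is from globins alone, the other lists standing at 2.19 to 3.47%. Cdc6, Mcm10 and Pclaf were at or below 10.59% there, so their UMIs in these neurons cannot be told apart from free RNA. The source of the UMIs of these genes was not tested. The median share over the 44 members was 47.0%.

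**Figure D2:**
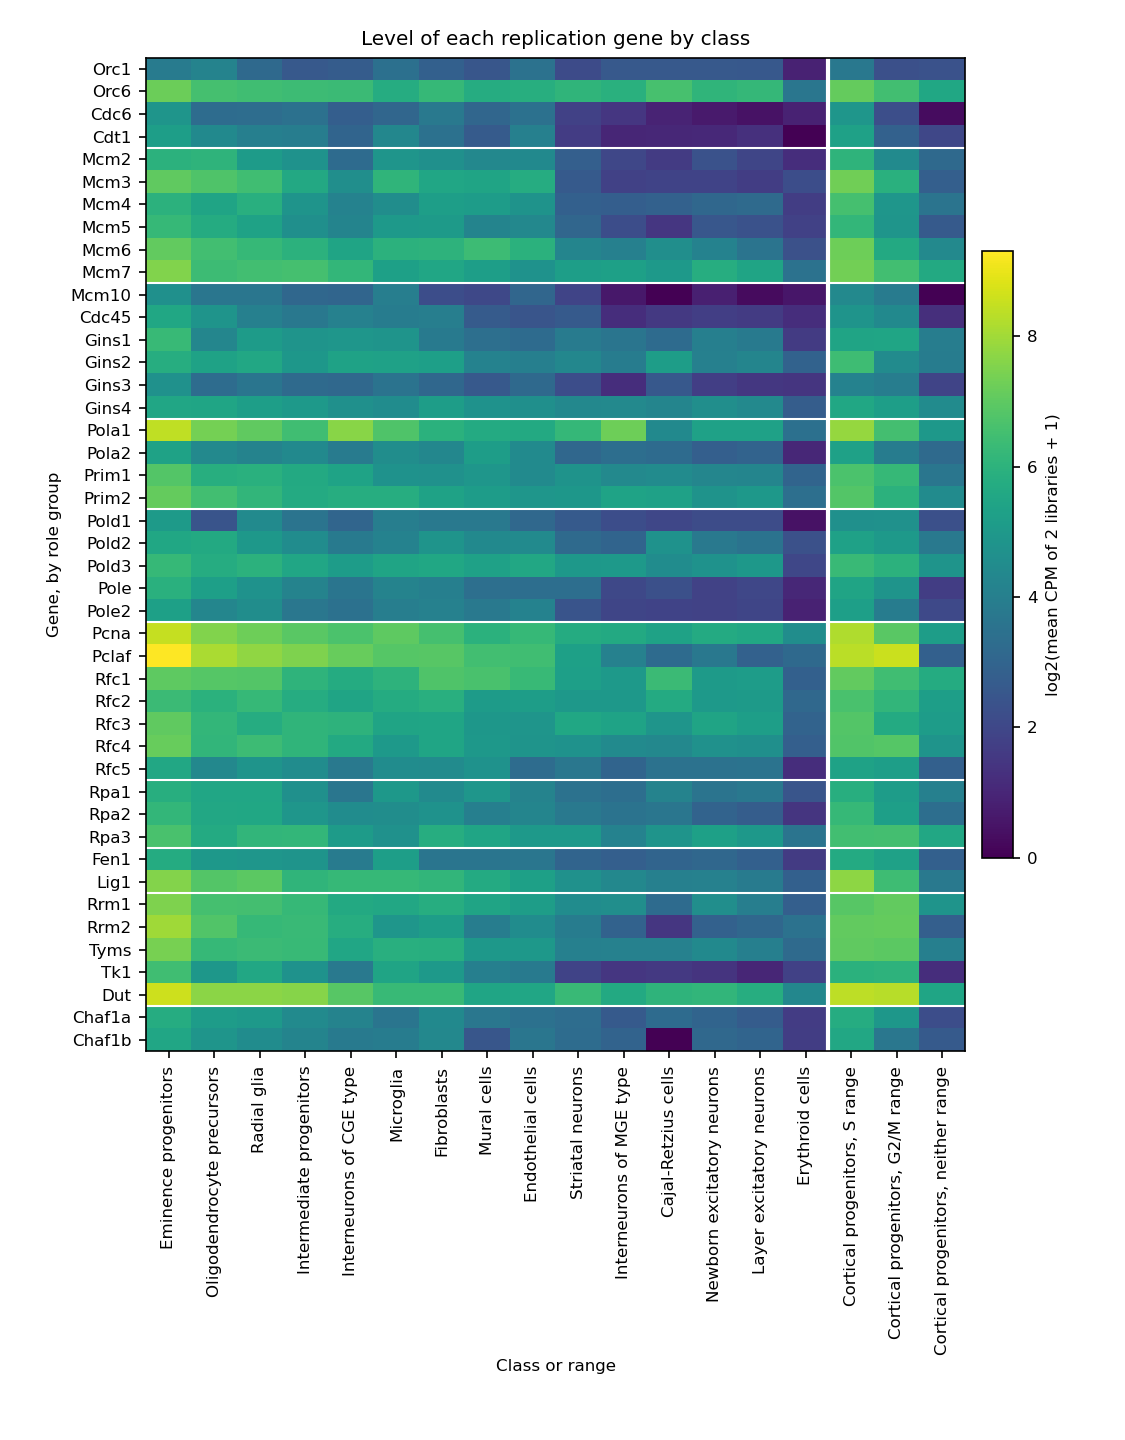
Level of each of the 44 genes (rows, by role group) in each class and range (columns), as log2 of the mean CPM of both libraries plus 1. Among the classes, eminence progenitors form the column with the highest summed level, and Orc6 keeps a level in layer excitatory neurons (67.4 and 75.6 CPM) near that in radial glia.

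Radial glia were compared with layer excitatory neurons to find which replication genes separate cortical stem cells from the neurons of the same tissue. Of the 44 members, 42 were higher in radial glia and 0 were lower, while over all 13942 genes tested 31.8% were called higher and 32.1% lower. A call is an adjusted p under 0.05 in edgeR's quasi-likelihood test. Values after ± in the comparisons are approximate standard errors, each the size of the log2 difference divided by the square root of the test statistic F. The median log2 difference was 1.89 for the members and -0.03 for all genes, and 44 of 44 members were higher in radial glia in both libraries. No member was lower at an unadjusted p under 0.05 or by DESeq2. Without the trimmed mean of M values (TMM) scaling, the median of all genes moved from -0.03 to 0.15.

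Origin licensing was divided. Orc1, the ATPase of the origin recognition complex, did not pass, at 8.67 and 7.495 CPM against 4.37 and 5.401 CPM (log2 0.55 ± 0.29, adjusted p = 0.119). Orc6, a small subunit of that complex, did not pass either, at 85.5 and 88.2 CPM against 67.4 and 75.6 CPM (log2 0.10 ± 0.10, adjusted p = 0.437), and was well expressed in the neurons. Cdt1, which loads MCM rings, was higher in radial glia at 13.6 and 16.8 CPM against 1.02 and 1.84 CPM (log2 3.22 ± 0.33, adjusted p = 1.0e-05). Its partner Cdc6 passed as well, at 6.19 and 11.9 CPM against 0.406 and 0.324 CPM (adjusted p = 2.9e-05), but the neuronal value rests on 4 and 3 UMIs, and the fitted log2 difference of 4.36 depends on the prior count.

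All 6 MCM subunits were higher in radial glia, by very different amounts. Mcm3 differed most, at 87.5 and 85.1 CPM against 2.64 and 1.84 CPM (log2 5.07 ± 0.18, adjusted p = 2.2e-09). In the neurons it stood at 11.81 and 7.43% of its library level, close to the share of free RNA, so the size of its difference is not firm. Mcm7 differed least, at 87.5 and 89.5 CPM against 42.2 and 41.5 CPM (log2 0.90 ± 0.10, adjusted p = 1.7e-05), a 1.86-fold difference. Between them lay Mcm2 with 33.9 and 32.6 CPM against 3.15 and 2.59 CPM (log2 3.34 ± 0.21, adjusted p = 1.8e-07). Mcm6, the subunit with 3 E2F spellings in its promoter window, had 71.4 and 75.8 CPM against 10.6 and 11.4 CPM (log2 2.56 ± 0.13, adjusted p = 2.9e-08). In each of these subunits both libraries of radial glia lay above both libraries of neurons.

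The helicase activators all passed. Mcm10, which helps to start unwinding, was at 12.4 and 11.02 CPM against 0.406 and 0 CPM (adjusted p = 1.1e-05), and no size is given because the neurons held 4 and 0 of its UMIs. Cdc45, a part of the active helicase, was at 15.3 and 16.3 CPM against 2.34 and 1.73 CPM (log2 2.75 ± 0.28, adjusted p = 9.3e-06). The GINS subunits Gins2 and Gins4 differed less, Gins2 with 54.5 and 39.7 CPM against 18.3 and 17.7 CPM (log2 1.21 ± 0.16, adjusted p = 8.1e-05). Gins4 had the smallest difference of the group, at 39.2 and 33.1 CPM against 19.5 and 20.3 CPM (log2 0.68 ± 0.15, adjusted p = 0.00222).

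The priming and elongating polymerases passed in full. Prim1, the catalytic primase subunit, was at 50.4 and 67.9 CPM against 18.1 and 17.6 CPM (log2 1.54 ± 0.15, adjusted p = 7.2e-06) and its partner Prim2 at 72.7 and 66.1 CPM against 30.8 and 29.2 CPM (log2 1.03 ± 0.11, adjusted p = 1.3e-05). Pola1, the polymerase subunit, was at 139 and 119 CPM against 38.8 and 40.1 CPM (log2 1.53 ± 0.11, adjusted p = 4.8e-07). These 3 differences were smaller than that of Pole, the catalytic subunit of the leading-strand polymerase, at 26.8 and 24.2 CPM against 3.35 and 2.48 CPM (log2 2.93 ± 0.24, adjusted p = 1.3e-06). Pold3, an accessory subunit of polymerase delta, had the smallest difference of its group, at 61.9 and 63.5 CPM against 30.4 and 30.5 CPM (log2 0.86 ± 0.11, adjusted p = 4.0e-05).

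The clamp group spanned a wide range. Pclaf, a small protein that binds PCNA, was at 208 and 220.0 CPM against 8.02 and 4.64 CPM (log2 4.88 ± 0.18, adjusted p = 3.1e-09), with the neurons at the level of free RNA. Pcna itself was at 149.9 and 153 CPM against 50.3 and 44.4 CPM (log2 1.49 ± 0.10, adjusted p = 4.2e-07). Rfc3 had the smallest called difference of all members, at 56.99 and 49.8 CPM against 40.4 and 31.3 CPM (log2 0.39 ± 0.15, adjusted p = 0.044). The large loader subunit Rfc1 lay between, at 114 and 107 CPM against 37.8 and 30.4 CPM (log2 1.51 ± 0.13, adjusted p = 1.8e-06). All 7 members of the group were higher in radial glia.

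The single-strand binding complex and the enzymes that join Okazaki fragments were higher as well. Rpa2 was at 46.2 and 44.5 CPM against 5.79 and 5.51 CPM (log2 2.82 ± 0.16, adjusted p = 9.6e-08), Rpa1 at 47.1 and 41.4 CPM against 12.6 and 11.6 CPM and Rpa3 at 53.7 and 85.1 CPM against 27.1 and 33.8 CPM (log2 0.999 ± 0.18, adjusted p = 7.2e-04), the last with the widest gap between libraries. The ligase Lig1 was at 111 and 133 CPM against 14.4 and 12.7 CPM (log2 2.98 ± 0.13, adjusted p = 9.6e-09). The flap nuclease Fen1 was at 29.3 and 28.2 CPM against 5.18 and 7.13 CPM (log2 2.04 ± 0.21, adjusted p = 8.5e-06). The histone chaperone subunits also passed, Chaf1a at 29.3 and 32.6 CPM against 6.09 and 5.08 CPM (log2 2.28 ± 0.20, adjusted p = 2.3e-06) and Chaf1b at 21.1 and 22.9 CPM against 7.72 and 6.16 CPM (log2 1.47 ± 0.21, adjusted p = 1.2e-04).

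All 5 genes of nucleotide supply were higher in radial glia. Rrm2, the regulated subunit of ribonucleotide reductase, was at 64.4 and 85.1 CPM against 7.21 and 7.88 CPM (log2 3.12 ± 0.17, adjusted p = 4.8e-08) and the large subunit Rrm1 at 90.02 and 91.7 CPM against 13.4 and 15.99 CPM (log2 2.44 ± 0.12, adjusted p = 2.4e-08). Thymidylate synthase, Tyms, was at 69.4 and 89.9 CPM against 17.1 and 13.2 CPM (log2 2.21 ± 0.16, adjusted p = 6.9e-07). Thymidine kinase Tk1 was at 44.2 and 49.4 CPM against 1.62 and 0.324 CPM (adjusted p = 1.9e-07), against 16 and 3 UMIs in the neurons. Dut, which removes dUTP, differed least of the group, at 198 and 217 CPM against 58.00 and 50.9 CPM (log2 1.75 ± 0.11, adjusted p = 1.3e-07).

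Intermediate progenitors were compared with the same layer excitatory neurons, so that both comparisons share the neuronal sums. Of the 44 members, 41 were higher in intermediate progenitors and 0 lower, at a background of 26.8% higher and 28.2% lower among 13508 genes tested. No member was lower at an unadjusted p under 0.05 or by DESeq2. Medians of the log2 difference were 1.57 for the members and -0.01 for all genes. Orc1 did not pass, at 4.15 and 6.09 CPM against 4.37 and 5.401 CPM (log2 -0.06 ± 0.31, adjusted p = 0.893), nor did Orc6, at 82.6 and 82.97 CPM against 67.4 and 75.6 CPM (log2 0.09 ± 0.09, adjusted p = 0.457). Pold3 was at 51.02 and 36.8 CPM against 30.4 and 30.5 CPM (log2 0.41 ± 0.15, adjusted p = 0.0522) and passed once the library entered as a replicate block (adjusted p = 0.0114).

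The licensing factors Cdc6 and Cdt1 passed, Cdc6 with 10.2 and 10.3 CPM against 0.406 and 0.324 CPM and Cdt1 with 14.7 and 14.4 CPM against 1.02 and 1.84 CPM (log2 3.22 ± 0.31, adjusted p = 4.1e-05). Of the MCM subunits Mcm3 again differed most, at 49.4 and 46.8 CPM against 2.64 and 1.84 CPM (log2 4.28 ± 0.19, adjusted p = 4.3e-07), and Mcm7 least, at 96.6 and 91.9 CPM against 42.2 and 41.5 CPM (log2 1.05 ± 0.09, adjusted p = 2.1e-05). The size for Mcm3 is again not firm, its neuronal level being close to the share of free RNA. The log2 differences of Mcm2 and Mcm6 were 3.04 and 2.35. Among the activators Mcm10 had 7.01 and 8.33 CPM in intermediate progenitors, Cdc45 a log2 difference of 2.44 and Gins2 one of 0.60, and Gins4 was lowest at 34.1 and 27.2 CPM against 19.5 and 20.3 CPM (log2 0.50 ± 0.15, adjusted p = 0.0185). Priming ran from Pola2 at 17.9 and 22.4 CPM against 6.501 and 7.13 CPM (log2 1.44 ± 0.19, adjusted p = 3.0e-04) to Prim2 at 55.2 and 46.5 CPM against 30.8 and 29.2 CPM (log2 0.64 ± 0.12, adjusted p = 0.00234), with Pola1 at 1.01. Pole led the elongating polymerases, at 21.7 and 12.5 CPM against 3.35 and 2.48 CPM (log2 2.41 ± 0.33, adjusted p = 3.2e-04).

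Pclaf was the leading member of the clamp group here too, at 195 and 165 CPM against 8.02 and 4.64 CPM (log2 4.69 ± 0.20, adjusted p = 3.3e-07). Rfc2 differed least, at 50.4 and 56.7 CPM against 32.6 and 32.6 CPM (log2 0.59 ± 0.10, adjusted p = 0.00138), and the log2 differences of Pcna and Rfc1 were 1.22 and 0.82. Rpa2 was at 32.5 and 25.3 CPM against 5.79 and 5.51 CPM (log2 2.23 ± 0.20, adjusted p = 2.3e-05) and Rpa1 at 23.3 and 25.6 CPM against 12.6 and 11.6 CPM (log2 0.89 ± 0.15, adjusted p = 0.0013), with Rpa3 at 1.105 on the log2 scale. Lig1 and Fen1 differed by 2.16 and 2, and Chaf1a and Chaf1b by 1.78 and 1.21. In nucleotide supply Rrm2 was at 76.9 and 79.4 CPM against 7.21 and 7.88 CPM (log2 3.24 ± 0.12, adjusted p = 1.5e-07), Rrm1 and Tyms differed by 2.204 and 2.19, Tk1 had 29.02 and 22.7 CPM in intermediate progenitors, and Dut was at 206 and 186 CPM against 58.00 and 50.9 CPM (log2 1.72 ± 0.10, adjusted p = 2.0e-06).

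**Figure D3:**
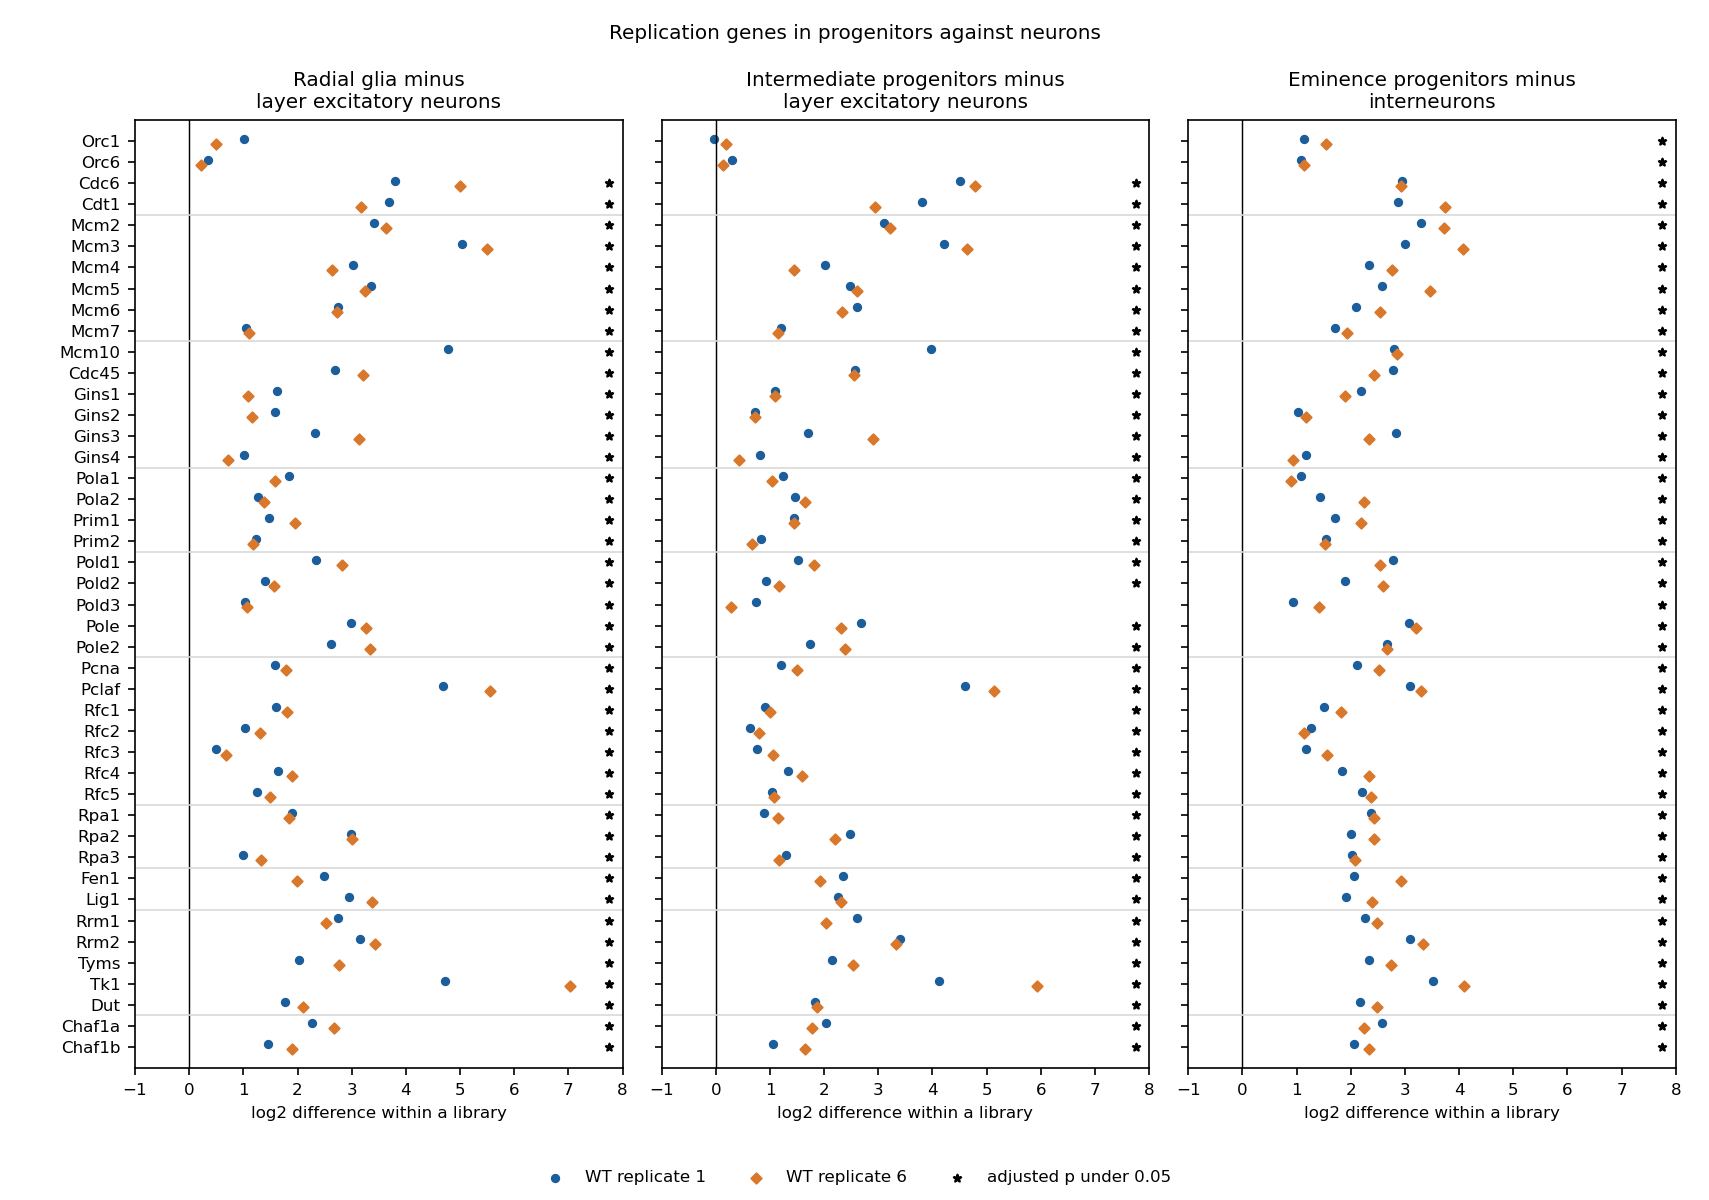
Log2 difference of each of the 44 genes within each library, for radial glia and intermediate progenitors against layer excitatory neurons and for eminence progenitors against interneurons, with a star where edgeR's adjusted p was under 0.05. Points with 0 UMIs on either side are not drawn, and stars are missing for Orc1 and Orc6 in the first panel, for Orc1, Orc6 and Pold3 in the second and for no gene in the third.

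Eminence progenitors were compared with all interneurons. All 44 members were higher in eminence progenitors in both libraries, at a background of 26.5% higher and 26.8% lower among 12155 genes tested, and DESeq2 also called all 44. No member was lower at an unadjusted p under 0.05. The median log2 difference was 2.31 for the members and -0.02 for all genes. Interneurons past the limits of the S or G2/M list were 24.9 and 26.3% of the class and held 53.2 and 52.2% of its replication gene UMIs. In layer excitatory neurons such cells were 13.7 and 12.9% and held 15.3 and 11.5%. Without these interneurons all 44 members were still higher and the median was 2.91. Globins stood in interneurons at 22.84 and 17.71% of their library level, and the other lists of free RNA at 1.5 to 11.07%. The members were not set against these shares, so sizes for genes low in interneurons, such as Tk1, are not firm.

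Here Orc1 and Orc6 passed, Orc1 with 11.5 and 15.7 CPM against 5.19 and 5.32 CPM (log2 1.35 ± 0.32, adjusted p = 0.00518) and Orc6 with 139 and 156 CPM against 65.8 and 70.97 CPM (log2 1.102 ± 0.12, adjusted p = 4.0e-05). Cdt1 led the licensing group, at 30.5 and 41.5 CPM against 4.04 and 2.96 CPM (log2 3.33 ± 0.30, adjusted p = 1.1e-05), and Cdc6 was at 27.4 and 27.8 CPM against 3.46 and 3.55 CPM. Among the MCM subunits Mcm2 differed most, at 61.00 and 64.3 CPM against 6.06 and 4.73 CPM (log2 3.52 ± 0.20, adjusted p = 7.9e-07), and Mcm7 least, at 178 and 192 CPM against 53.9 and 50.6 CPM (log2 1.81 ± 0.12, adjusted p = 1.5e-06), with Mcm6 at 2.301 on the log2 scale. Mcm7 thus had the smallest difference of the ring in each of the 3 comparisons of progenitors with neurons. Mcm10 was at 24.8 and 24.3 CPM against 3.46 and 3.25 CPM (log2 2.85 ± 0.28, adjusted p = 2.3e-05) and Gins4 at 44.2 and 45.5 CPM against 19.6 and 23.95 CPM (log2 1.04 ± 0.17, adjusted p = 6.4e-04), while Cdc45 and Gins2 differed by 2.59 and 1.097.

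Pola1 had the smallest difference of all 44, at 351 and 330.4 CPM against 165 and 178 CPM (log2 0.98 ± 0.11, adjusted p = 5.7e-05). Its level in the interneurons was not low, unlike in layer excitatory neurons, where it was 38.8 and 40.1 CPM. Prim1 was at 106 and 117 CPM against 32.3 and 25.7 CPM (log2 1.93 ± 0.15, adjusted p = 4.2e-06) and Prim2 differed by 1.54. Pole was at 64.1 and 53.1 CPM against 7.501 and 5.62 CPM (log2 3.15 ± 0.22, adjusted p = 2.4e-06) and Pold3 at 68.1 and 80.5 CPM against 35.8 and 30.2 CPM (log2 1.16 ± 0.15, adjusted p = 1.6e-04). In the clamp group Pclaf was at 567 and 697 CPM against 66.6 and 70.97 CPM (log2 3.19 ± 0.14, adjusted p = 2.7e-07), Rfc2 at 78.2 and 82.98 CPM against 32.6 and 37.6 CPM (log2 1.19 ± 0.14, adjusted p = 6.0e-05), and Pcna and Rfc1 differed by 2.33 and 1.65.

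The 3 subunits of the single-strand binding complex moved by similar amounts, from Rpa1 at 53.04 and 57.7 CPM against 10.1 and 10.6 CPM (log2 2.403 ± 0.18, adjusted p = 3.4e-06) to Rpa3 at 91.1 and 107 CPM against 22.2 and 25.4 CPM (log2 2.05 ± 0.15, adjusted p = 2.8e-06). Fen1 was at 45.1 and 59.7 CPM against 10.7 and 7.69 CPM and Lig1 at 170.2 and 209 CPM against 45.3 and 39.9 CPM, and Chaf1a and Chaf1b differed by 2.39 and 2.2. Tk1 differed most of all members, at 87.5 and 87.5 CPM against 7.501 and 5.03 CPM (log2 3.79 ± 0.20, adjusted p = 4.9e-07). Dut differed least among the nucleotide genes, at 349 and 432 CPM against 77.9 and 77.2 CPM (log2 2.32 ± 0.13, adjusted p = 7.0e-07), with Rrm1, Rrm2 and Tyms at 2.37, 3.21 and 2.54.

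Radial glia were then compared with intermediate progenitors. Of the 44 members, 13 were higher in radial glia and 1 was lower, at a background of 21.8% higher and 19.1% lower among 12092 genes tested. The median log2 difference was 0.30 for the members and -0.01 for all genes. With the library as a replicate block 18 were higher and 1 lower, the added genes being Chaf1a, Pcna, Pold3, Pole and Prim2. DESeq2 called 6 higher and 0 lower.

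The 13 higher genes were Mcm3, Mcm4, Mcm5, Gins2, Pola1, Pold1, Pole2, Rfc1, Rfc2, Rpa1, Rpa2, Lig1 and Tk1. Mcm4 differed most, at 57.4 and 59.1 CPM against 28.4 and 25.9 CPM (log2 1.03 ± 0.15, adjusted p = 1.6e-04). Its ring partner Mcm7 did not pass, at 87.5 and 89.5 CPM against 96.6 and 91.9 CPM (log2 -0.16 ± 0.11, adjusted p = 0.293), nor did Mcm2 and Mcm6, with log2 differences of 0.29 and 0.19, so that 3 of the 6 subunits were called. In origin licensing 0 of 4 passed by edgeR or DESeq2, adjusted or not. Orc1 was at 8.67 and 7.495 CPM against 4.15 and 6.09 CPM (log2 0.59 ± 0.36, adjusted p = 0.22) and Cdc6 at 6.19 and 11.9 CPM against 10.2 and 10.3 CPM (log2 -0.26 ± 0.34, adjusted p = 0.584), while Orc6 and Cdt1 differed by -0.00 and -0.01.

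Gins2 was the 1 activator called, at 54.5 and 39.7 CPM against 30.3 and 29.2 CPM (log2 0.60 ± 0.18, adjusted p = 0.0194), with Cdc45 at 0.31 and Gins4 at 0.17 on the log2 scale. Pola1 passed at 139 and 119 CPM against 91.2 and 82.01 CPM (log2 0.51 ± 0.12, adjusted p = 0.00592), and Pola2 did not, at 15.7 and 18.5 CPM against 17.9 and 22.4 CPM (log2 -0.31 ± 0.23, adjusted p = 0.312). Pold1, the catalytic subunit of polymerase delta, was at 18.2 and 23.8 CPM against 10.2 and 11.9 CPM (log2 0.85 ± 0.25, adjusted p = 0.0155), and Pold2 was at 30.1 and 29.5 CPM against 21.7 and 22.4 CPM (log2 0.37 ± 0.18, adjusted p = 0.135). The polymerase genes that missed the test were thus not all in 1 complex. Prim2, Pold3 and Pole had adjusted p of 0.0519, 0.0525 and 0.141 without the block and of 0.0124, 0.00491 and 0.0387 with it.

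The clamp loader went both ways. Rfc1 was higher in radial glia, at 114 and 107 CPM against 70.8 and 60.9 CPM (log2 0.68 ± 0.13, adjusted p = 0.001), and Rfc3 was lower, at 56.99 and 49.8 CPM against 68.2 and 65.4 CPM (log2 -0.39 ± 0.14, adjusted p = 0.0376), a call lost without TMM scaling, without the filter on low counts and by DESeq2. Pcna and Pclaf differed by 0.26 and 0.18 and did not pass. Rpa1 was at 47.1 and 41.4 CPM against 23.3 and 25.6 CPM (log2 0.79 ± 0.17, adjusted p = 0.00245), while Rpa3, whose libraries differed in sign, was at 53.7 and 85.1 CPM against 66.6 and 76.2 CPM (log2 -0.12 ± 0.18, adjusted p = 0.646). Lig1 was at 111 and 133 CPM against 69.2 and 63.4 CPM (log2 0.81 ± 0.13, adjusted p = 2.9e-04) and Fen1 at 29.3 and 28.2 CPM against 26.5 and 27.2 CPM (log2 0.03 ± 0.18, adjusted p = 0.909). Of the nucleotide genes Tk1 passed, at 44.2 and 49.4 CPM against 29.02 and 22.7 CPM (log2 0.78 ± 0.18, adjusted p = 0.00358), and Rrm1, Rrm2, Tyms and Dut did not, with log2 differences of 0.23, -0.14, 0.00 and 0.01. Chaf1a and Chaf1b differed by 0.48 and 0.25.

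The classes differed in their cell-cycle makeup. Of radial glia 38.8 and 34.1% fell in the S range and 33.2 and 35.8% in the G2/M range, and of intermediate progenitors 27.0 and 26.2% and 10.7 and 10.1%. The comparison was therefore repeated within each range, the G2/M range being added after the data had been seen. These fits have no term for the library unless one is named. In the S range 4 members were higher in radial glia and 0 lower, at a background of 12.4% higher and 8.96% lower among 9341 genes, with a median of 0.10. Mcm4 was at 107 and 129 CPM against 78.7 and 67.02 CPM (log2 0.67 ± 0.19, adjusted p = 0.025). The others were Gins2, Rfc1 and Lig1, with log2 differences of 0.70, 0.66 and 0.58. With the library as a replicate block 8 were higher and 1 lower in the S range, Mcm3, Pole2, Rfc2 and Rpa1 being added as higher and Tyms as lower. The background rose as well with the block, to 14.9% higher and 12.1% lower among the same 9341 genes. In the neither range 25 members could be tested and Mcm4 and Dut were higher in radial glia (1.69 and 1.05), while 14.6% of 10019 genes were called higher and 9.71% lower.

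In the G2/M range the direction was the opposite. There 0 of 40 members tested were higher in radial glia and 11 were lower, at a background of 9.16% higher and 6.79% lower among 8375 genes, with a median of -0.64. The 11 were Mcm7, Cdc45, Prim1, Pcna, Pclaf, Rfc3, Rfc4, Fen1, Rrm2, Tyms and Dut. Dut was at 169 and 221 CPM against 680.1 and 538 CPM (log2 -1.69 ± 0.22, adjusted p = 3.2e-04). Rrm2 was at 78.5 and 90.5 CPM against 291 and 228 CPM (log2 -1.67 ± 0.22, adjusted p = 3.4e-04). Pclaf was at 228 and 278 CPM against 779.6 and 568 CPM (log2 -1.46 ± 0.22, adjusted p = 8.5e-04). In all 3 genes both libraries of intermediate progenitors lay above both of radial glia, by more than the gap between libraries.

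The MCM ring was again divided in the G2/M range. Mcm7 was lower in radial glia, at 63.2 and 56.3 CPM against 169 and 151 CPM (log2 -1.46 ± 0.23, adjusted p = 0.00101), whereas Mcm4 was at 33.7 and 32.00 CPM against 9.25 and 30.2 CPM, the intermediate progenitor values resting on 4 and 11 UMIs. Cdc45 was at 5.100 and 16.6 CPM against 55.5 and 27.4 CPM, the radial glia values resting on 5 and 15 UMIs. Pcna was at 97.9 and 100.4 CPM against 176 and 167 CPM. Over all 44 members 29 were lower in G2/M-range radial glia in both libraries and 4 higher in both, whereas in the S range 12 were lower and 21 higher. The difference between the ranges was tested as an interaction over 9899 genes, and 0 genes (0.0%) were called by edgeR without a term for the library, DESeq2 not having been run on it. At an unadjusted p under 0.05 there were 22 of 44 members and 6.31% of all genes, with a median interaction of 0.90 on the log2 scale against -0.01 over all genes. The smallest adjusted p of a member were 0.0506 for Dut, 0.0725 for Mcm7 and 0.0835 for Pclaf. With the library as a replicate block, a fit added after the data had been seen, 6 genes (0.0606%) were called, and 3 of them were these members. Their interactions were 1.63 ± 0.23 for Dut, 1.47 ± 0.23 for Pclaf and 1.57 ± 0.27 for Mcm7 on the log2 scale, with adjusted p of 0.00383, 0.0102 and 0.0159 by edgeR.

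The G2/M range held 33 and 34 intermediate progenitors and 77 and 83 radial glia. Other cell-cycle genes moved with the result, since the S list, which holds none of the 44, was at 2163 and 1779 CPM in these intermediate progenitors and at 1545 and 1502 CPM in the radial glia. The G2/M list was at 13732 and 11459 CPM against 12898 and 11911 CPM. Replication-dependent histone genes were at 11780 and 4998 CPM against 7620 and 5620 CPM. The part of these values in the result was not tested.

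**Figure D4:**
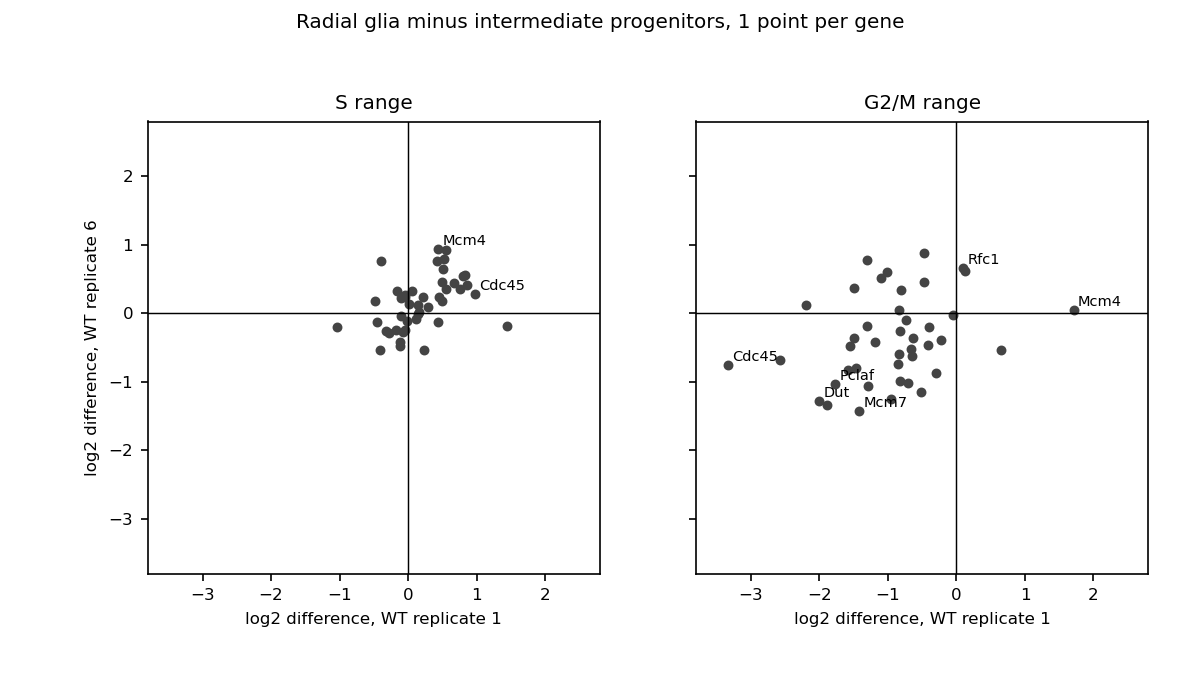
Log2 difference of each replication gene between radial glia and intermediate progenitors in WT replicate 1 (x axis) and WT replicate 6 (y axis), within the S range (left) and the G2/M range (right). In the G2/M range 29 of 44 genes are below 0 in both libraries, and genes with 0 UMIs in any of the 4 sums are not drawn.

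Radial glia of the cortex were also compared with eminence progenitors. Of the 44 members, 36 were lower in radial glia and 0 higher, at a background of 18.2% lower and 20% higher among 11734 genes tested. No member was higher at an unadjusted p under 0.05 or by DESeq2, which called 29 lower. The median log2 difference was -0.93 for the members and 0.00 for all genes. The 8 that did not pass were Orc1, Mcm4, Gins2, Gins4, Pold3, Rfc1, Rfc2 and Rpa1.

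Rrm2 differed most, at 64.4 and 85.1 CPM against 237 and 262 CPM (log2 -1.78 ± 0.14, adjusted p = 1.5e-06). Cdc6 followed at 6.19 and 11.9 CPM against 27.4 and 27.8 CPM (log2 -1.66 ± 0.30, adjusted p = 9.0e-04) and Pclaf at 208 and 220.0 CPM against 567 and 697 CPM (log2 -1.602 ± 0.13, adjusted p = 2.3e-06). In these 3 genes the libraries of the classes did not overlap. Orc1 was at 8.67 and 7.495 CPM against 11.5 and 15.7 CPM (log2 -0.77 ± 0.32, adjusted p = 0.0743), while Orc6 and Cdt1 differed by -0.81 and -1.28. Mcm4 was the exception of the ring, at 57.4 and 59.1 CPM against 53.04 and 71.3 CPM (log2 -0.13 ± 0.16, adjusted p = 0.579), with libraries that differed in sign. Mcm7 was at 87.5 and 89.5 CPM against 178 and 192 CPM (log2 -1.104 ± 0.12, adjusted p = 1.8e-05), and Mcm2 and Mcm6 differed by -0.95 and -0.90. Gins2 had a change of sign between libraries too, at 54.5 and 39.7 CPM against 52.6 and 56.2 CPM (log2 -0.24 ± 0.18, adjusted p = 0.311), and Cdc45 was at 15.3 and 16.3 CPM against 44.2 and 48.1 CPM (log2 -1.58 ± 0.20, adjusted p = 5.8e-05).

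The polymerase subunits were lower in radial glia with the exception of Pold3. Pola1 was at 139 and 119 CPM against 351 and 330.4 CPM (log2 -1.44 ± 0.13, adjusted p = 3.6e-06) and Pole at 26.8 and 24.2 CPM against 64.1 and 53.1 CPM (log2 -1.24 ± 0.18, adjusted p = 2.0e-04). Pold3 was at 61.9 and 63.5 CPM against 68.1 and 80.5 CPM (log2 -0.28 ± 0.14, adjusted p = 0.151), and Prim1 and Prim2 differed by -0.96 and -1.02. The clamp and its loader parted, with Pcna at 149.9 and 153 CPM against 312 and 402 CPM (log2 -1.27 ± 0.14, adjusted p = 1.8e-05) and Rfc2 at 66.9 and 81.1 CPM against 78.2 and 82.98 CPM (log2 -0.17 ± 0.14, adjusted p = 0.404), and with Rfc1 at -0.23 on the log2 scale. Rpa2 was at 46.2 and 44.5 CPM against 69.8 and 72.4 CPM (log2 -0.69 ± 0.14, adjusted p = 0.00274), Rpa1 at 47.1 and 41.4 CPM against 53.04 and 57.7 CPM (log2 -0.36 ± 0.16, adjusted p = 0.0891), and Rpa3 differed by -0.56. Fen1 and Lig1 had log2 differences of -0.90 and -0.67, and Chaf1a and Chaf1b had -0.83 and -1.04. All 5 nucleotide genes were lower, the least being Tk1 at 44.2 and 49.4 CPM against 87.5 and 87.5 CPM (log2 -0.95 ± 0.14, adjusted p = 2.9e-04), with Rrm1, Tyms and Dut at -1.02, -1.097 and -0.95.

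Eminence progenitors had 52.6 and 55.5% of their cells in the S range and 10.3 and 9.5% in neither, against 24.1 and 23.3% of radial glia in neither. Within the S range 24 of 44 members were lower in radial glia and 0 higher, at a background of 11.9% lower and 15.3% higher among 9644 genes, with a median of -0.59. Other cell-cycle genes moved with this result. In the S range the S list was at 2541 and 2499 CPM in radial glia and at 4025 and 4025 CPM in eminence progenitors, and the G2/M list at 1423 and 1662 CPM against 3352 and 3181 CPM. In the G2/M range the S list was at 1545 and 1502 CPM against 2359 and 2290 CPM. The part of these lists in the result was not tested. Rrm2 and Pclaf still led, with log2 differences of -1.36 and -1.32. Within the G2/M range 15 of 41 were lower and 0 higher, at 12.1% lower and 14.1% higher among 9281 genes, with Cdc45 most, at -1.76, and Rrm2 next, at -1.53. The value for Cdc45 rests on 5 and 15 UMIs in radial glia. In the neither range, with 20 to 56 cells a sum, 11 members could be tested and Pola1 alone was lower (log2 -1.55), at 8.17% lower and 9.6% higher among 6180 genes.

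To follow the genes through the cycle, cortical progenitors of the S range (173 and 167 cells) were compared with those of the G2/M range (110 and 117 cells). Among the 44 members, 20 were higher in the S range and 0 lower, at a background of 3.44% higher and 4.34% lower among 10568 genes tested. No member was lower at an unadjusted p under 0.05 or by DESeq2, which called 14 higher. Medians of the log2 difference were 0.61 for the members and 0.01 for all genes. The summed level was 4152 and 4468 CPM in the S range and 2965 and 2816 CPM in the G2/M range. The ranges were drawn with other genes of the same cells.

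Origin licensing moved most, with 3 of 4 genes called. Cdc6 was at 24.03 and 33.6 CPM against 4.25 and 3.15 CPM (log2 2.89 ± 0.39, adjusted p = 5.7e-04) and Cdt1 at 38.1 and 41.02 CPM against 5.66 and 7.08 CPM (log2 2.59 ± 0.30, adjusted p = 1.5e-04), the Cdc6 values in the G2/M range resting on 6 and 4 UMIs. Orc6 passed at 129 and 147 CPM against 90.6 and 85.00 CPM (log2 0.62 ± 0.15, adjusted p = 0.0246), and Orc1 did not, at 11.1 and 13.1 CPM against 2.12 and 5.51 CPM (log2 1.64 ± 0.50, adjusted p = 0.0725). All 6 MCM subunits were higher in the S range, from Mcm4 at 92.6 and 95.7 CPM against 26.2 and 31.5 CPM (log2 1.68 ± 0.19, adjusted p = 1.2e-04) to Mcm7 at 151 and 163 CPM against 95.6 and 83.4 CPM (log2 0.78 ± 0.15, adjusted p = 0.00641), with Mcm2 and Mcm6 at 1.57 and 1.58. Of 6 activators Gins2 alone passed, at 94.95 and 74.6 CPM against 16.99 and 25.97 CPM (log2 1.96 ± 0.24, adjusted p = 2.4e-04). Its partner Gins1 was at 46.3 and 37.9 CPM against 46.7 and 40.9 CPM (log2 -0.09 ± 0.20, adjusted p = 0.849), and Cdc45 differed by 0.40.

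The polymerase genes were divided within their complexes. Pola2 was at 33.4 and 44.1 CPM against 14.9 and 13.4 CPM (log2 1.41 ± 0.27, adjusted p = 0.00621) and Prim1, which did not pass, at 86.7 and 114 CPM against 72.2 and 74.8 CPM (log2 0.41 ± 0.17, adjusted p = 0.19), while Pola1 and Prim2 were higher by 1.28 and 0.81. Pole2, an accessory subunit of polymerase epsilon, was at 32.8 and 41.02 CPM against 14.9 and 13.4 CPM (log2 1.34 ± 0.26, adjusted p = 0.00745). Pole, Pold3 and Pold1 did not pass, with log2 differences of 0.60, 0.33 and -0.07. The clamp and the small protein that binds it also parted. Pcna was at 273 and 311 CPM against 122 and 119.6 CPM (log2 1.24 ± 0.14, adjusted p = 1.6e-04), whereas Pclaf was at 315 and 336 CPM against 397 and 361 CPM (log2 -0.26 ± 0.14, adjusted p = 0.32). Rfc1 was called, at 0.56, and so were Rfc3, Rpa2, Lig1 and Chaf1b, at 1.09, 0.97, 1.27 and 1.93. Rpa1, Rpa3, Fen1 and Chaf1a were not, at 0.65, -0.08, 0.31 and 0.79.

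In nucleotide supply 0 of 5 genes were past the test by edgeR or DESeq2, adjusted or not. Rrm1 was at 124 and 113 CPM against 135 and 131 CPM (log2 -0.20 ± 0.14, adjusted p = 0.469). Tyms was at 121 and 142 CPM against 117 and 132 CPM (log2 0.05 ± 0.15, adjusted p = 0.898). Dut was at 322 and 349.9 CPM against 326 and 312 CPM, Rrm2 at 104 and 160.3 CPM against 144 and 129.9 CPM and Tk1 at 54.5 and 66.5 CPM against 71.5 and 57.5 CPM, and in these 3 the libraries differed in sign.

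The promoter windows are set beside these values as a description. Of the 15 members with an E2F spelling 10 were higher in the S range, with a median log2 difference of 1.28, Cdc6, Cdt1 and Mcm6 among them. Of the 22 with a window and no spelling 7 were higher, with a median of 0.41, Pcna among them and Rrm2 not. Pclaf held a spelling 5 bases from its start site and was not higher. The 5 nucleotide genes held none. Among genes outside the 44, 5.28% of the 417 with a spelling and 3.1% of the 7894 without were higher in the S range, with medians of 0.03 and 0.01.

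**Figure D5:**
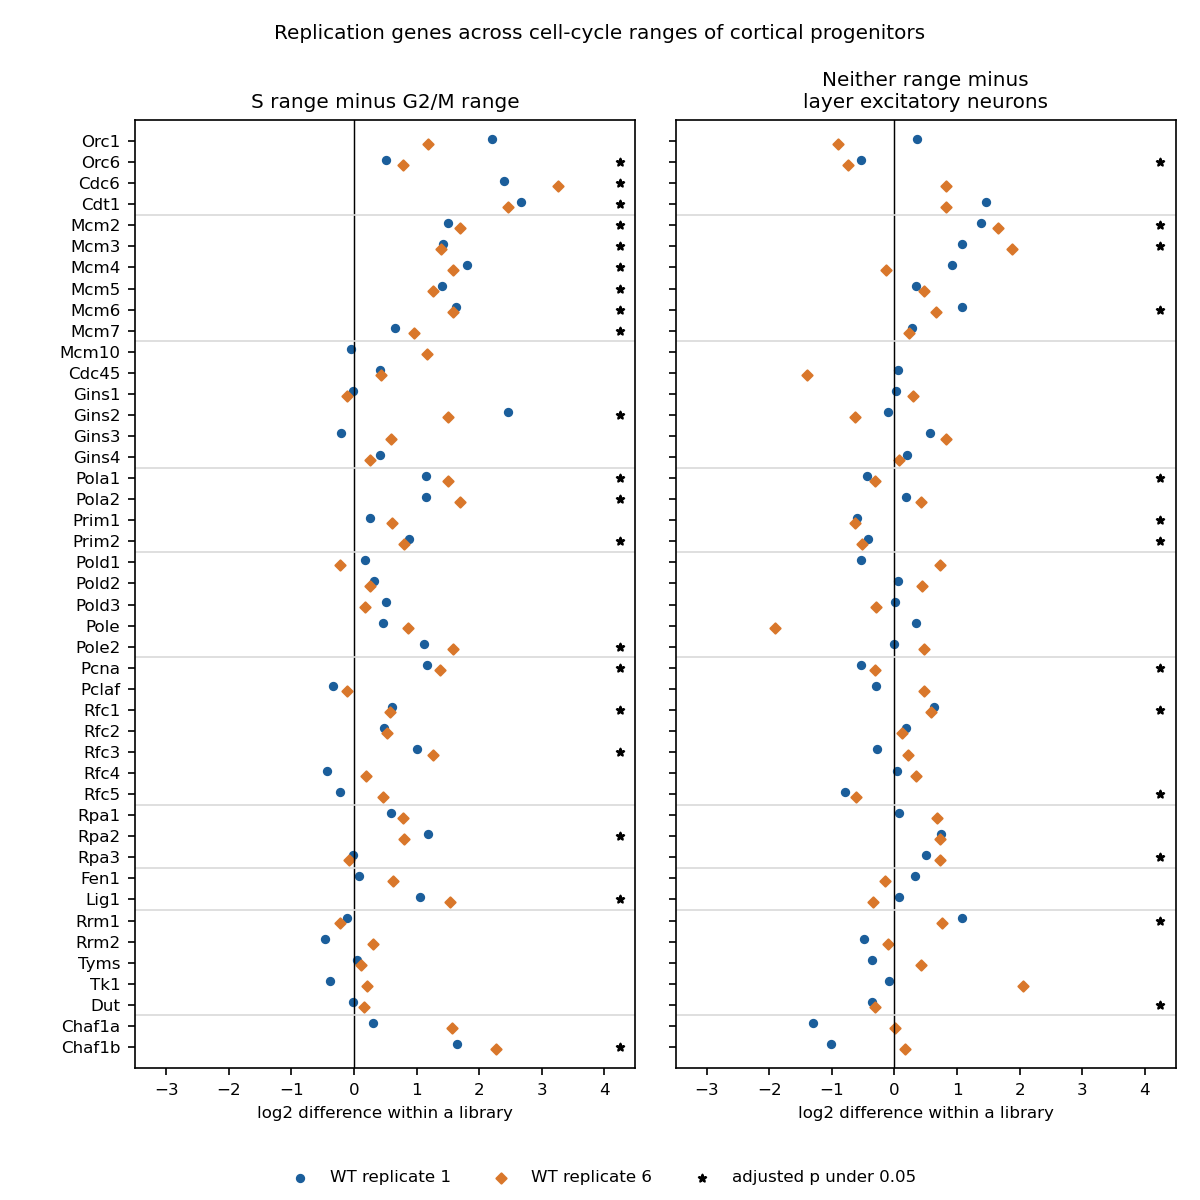
Log2 difference of each replication gene within each library between S-range and G2/M-range cortical progenitors (left) and between neither-range cortical progenitors and layer excitatory neurons (right), with a star where edgeR's adjusted p was under 0.05. On the left all 6 MCM genes carry a star and the 5 nucleotide genes carry none, and points with 0 UMIs on either side are not drawn.

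Cortical progenitors in neither range (233 and 253 cells) were compared with layer excitatory neurons. Their summed level was 718.1 and 718.4 CPM, within the range of the neurons. The limits of the S and G2/M lists were set on these same neurons, so this likeness was in part set by the split. The neurons past the limits, 13.7 and 12.9% of them, were kept in the comparison. Of the 44 members 41 could be tested, 6 were higher and 7 lower in these progenitors, at a background of 24.5% higher and 25% lower among 13578 genes. The median log2 difference was -0.002 for the members and -0.02 for all genes. Without the neurons past the limits the members' median was 0.044. DESeq2 called 2 higher and 2 lower. The S list was at 422 and 387 CPM in the progenitors and 445 and 409 CPM in the neurons.

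The 6 higher genes were Mcm2, Mcm3, Mcm6, Rfc1, Rpa3 and Rrm1. Mcm2 was at 8.15 and 8.07 CPM against 3.15 and 2.59 CPM (log2 1.37 ± 0.31, adjusted p = 0.00494), Mcm6 at 22.2 and 17.9 CPM against 10.6 and 11.4 CPM (log2 0.74 ± 0.20, adjusted p = 0.0101) and Mcm7, which did not pass, at 51.2 and 48.4 CPM against 42.2 and 41.5 CPM (log2 0.13 ± 0.11, adjusted p = 0.356). Rrm1 was at 28.1 and 26.9 CPM against 13.4 and 15.99 CPM (log2 0.78 ± 0.17, adjusted p = 0.00336), Rfc1 at 58.4 and 45.3 CPM against 37.8 and 30.4 CPM (log2 0.48 ± 0.16, adjusted p = 0.0325) and Rpa3 at 38.5 and 56.1 CPM against 27.1 and 33.8 CPM (log2 0.51 ± 0.17, adjusted p = 0.0332). The 7 lower genes were Orc6, Prim1, Prim2, Pola1, Rfc5, Pcna and Dut. Orc6, which had not separated radial glia from neurons, was at 46.2 and 44.8 CPM against 67.4 and 75.6 CPM (log2 -0.77 ± 0.11, adjusted p = 2.8e-04). Prim1 was at 11.8 and 11.2 CPM against 18.1 and 17.6 CPM (log2 -0.76 ± 0.19, adjusted p = 0.00818) and Rfc5, another loader subunit, at 6.34 and 6.28 CPM against 11.3 and 9.94 CPM (log2 -0.87 ± 0.26, adjusted p = 0.0187). Of polymerase alpha-primase 3 of 4 genes were thus lower, Pola1 and Prim2 having log2 differences of -0.50 and -0.61. Pcna was at 34.4 and 35.4 CPM against 50.3 and 44.4 CPM (log2 -0.56 ± 0.13, adjusted p = 0.00477) and Dut at 44.8 and 40.8 CPM against 58.00 and 50.9 CPM (log2 -0.47 ± 0.13, adjusted p = 0.0113).

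The other tested members did not pass. Cdt1 was at 2.72 and 3.14 CPM against 1.02 and 1.84 CPM (log2 0.92 ± 0.51, adjusted p = 0.167) and Orc1 at 5.43 and 2.69 CPM against 4.37 and 5.401 CPM. Cdc45, Gins2, Gins3, Pola2, Pold2, Pold3 and Pole had log2 differences of -0.71, -0.49, 0.44, 0.17, 0.10, -0.27 and -0.50. Pclaf, Rpa1, Rpa2, Fen1, Lig1, Rrm2, Tyms, Chaf1a and Chaf1b had -0.14, 0.26, 0.58, -0.08, -0.26, -0.43, -0.11, -0.75 and -0.55. Cdc6, Mcm10 and Tk1 were not tested, with 0 and 1, 0 and 0, and 3 and 3 UMIs in these progenitors.

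Few replication genes were called between newborn and layer excitatory neurons, and the share called higher was near that over all genes. In this comparison 42 of 44 members were tested, 4 were higher in newborn neurons and 0 lower, at a background of 8.75% higher and 12.2% lower among 13597 genes, with medians of 0.14 for the members and -0.00 for all genes. Without neurons past the cell-cycle limits 3 of 40 tested members were higher, Mcm6, Mcm7 and Rrm1, and the members' median was 0.038, while under the stricter cell filter it was 0.044. DESeq2 called 0, with 5 higher at an unadjusted p under 0.05, and edgeR had 1 member lower at an unadjusted p under 0.05. With the library as a replicate block 7 were higher and 1 lower, Dut, Rpa3 and Tyms being added as higher and Pold3 as lower, with adjusted p of 0.00314, 0.0205, 0.0448 and 0.0463. Pclaf was at 12.4 and 12.3 CPM against 8.02 and 4.64 CPM (log2 0.92 ± 0.25, adjusted p = 0.0343), with the layer neurons at the level of free RNA. Rrm1 was at 19.9 and 26.7 CPM against 13.4 and 15.99 CPM (log2 0.63 ± 0.16, adjusted p = 0.0255). Mcm6 was at 15.6 and 17.04 CPM against 10.6 and 11.4 CPM (log2 0.53 ± 0.14, adjusted p = 0.0268) and Mcm7 at 55.2 and 55.2 CPM against 42.2 and 41.5 CPM (log2 0.36 ± 0.07, adjusted p = 0.0104), while Mcm4 was at 7.97 and 7.37 CPM against 7.01 and 9.51 CPM (log2 -0.14 ± 0.21, adjusted p = 0.695).

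The remaining members of newborn neurons did not pass. Orc1, Orc6 and Cdt1 had log2 differences of 0.02, -0.13 and -0.37, and Mcm2, Cdc45, Gins2 and Gins3 had 0.46, 0.14, -0.26 and 0.30. Those of Pola1, Pola2, Prim1 and Prim2 were -0.04, -0.23, -0.01 and -0.22, and those of Pold2, Pold3 and Pole 0.18, -0.27 and -0.25. Pcna, Rfc1, Rfc2, Rpa1 and Rpa3 had 0.05, -0.10, -0.11, -0.16 and 0.29. Fen1, Lig1, Rrm2, Tyms, Tk1, Dut, Chaf1a and Chaf1b had 0.27, 0.21, -0.28, 0.40, 0.68, 0.30, 0.27 and 0.14. Cdc6 and Mcm10 were not tested.

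A further 40 genes of replication, outside the 44, were followed in the same fits. In radial glia against layer excitatory neurons 39 were tested, 30 were higher and 2 lower, while over all genes 31.8% were higher and 32.1% lower. Gmnn, the inhibitor of Cdt1, was at 104 and 91.7 CPM against 2.84 and 1.84 CPM (log2 5.19 ± 0.18, adjusted p = 2.5e-09). Clspn and Ticrr, which act at forks and at origin firing, had log2 differences of 5.04 and 4.85, with the neurons at the level of free RNA. The lower genes were Tk2, the mitochondrial thymidine kinase, at 7.85 and 6.61 CPM against 16.4 and 18.4 CPM (log2 -1.44 ± 0.23, adjusted p = 2.2e-04), and Orc4, at 66.9 and 59.5 CPM against 78.7 and 82.4 CPM (log2 -0.53 ± 0.11, adjusted p = 0.00129), while Pold4 did not pass at -0.54. Tk2 thus went the other way from its cytosolic counterpart Tk1. Rrm2b, the reductase subunit used outside S phase, was at 21.9 and 27.8 CPM against 24.5 and 25.4 CPM (log2 -0.19 ± 0.16, adjusted p = 0.311) and Samhd1, which breaks down deoxynucleotides, at 16.9 and 14.99 CPM against 4.37 and 5.62 CPM (log2 1.495 ± 0.24, adjusted p = 2.9e-04).

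In intermediate progenitors against the neurons 26 of 39 were higher and 0 lower, while over all genes 26.8% were higher and 28.2% lower. Clspn, Ticrr and Gmnn led with 4.99, 4.01 and 3.95. Tk2, Chtf8 and Cdc7 were last with -0.43, -0.25 and -0.23, and Rrm2b and Samhd1 were at 0.10 and 0.50. In eminence progenitors against interneurons 31 of 39 were higher, led by Clspn at 151 and 167 CPM against 18.2 and 13.6 CPM (log2 3.31 ± 0.16, adjusted p = 3.8e-07) and Gmnn (2.97), and the lower genes were Orc3 and Orc4 (-0.61 and -0.34). Over all genes 26.5% were higher there and 26.8% lower. Tk2, Rrm2b and Samhd1 had -0.74, -0.02 and 0.95, of which Samhd1 passed. Between radial glia and intermediate progenitors 11 were higher and 3 lower, while over all genes 21.8% were higher and 19.1% lower. At the top were Gmnn at 104 and 91.7 CPM against 43.05 and 36.8 CPM (log2 1.23 ± 0.14, adjusted p = 2.3e-05), Asf1b at 1.09 and Samhd1 at 0.99. The lower ones were Tk2, Pold4 and Orc4, at -1.02, -0.71 and -0.36, while Rnaseh2a and Rrm2b did not pass (-0.36 and -0.30). Against eminence progenitors 21 were lower in radial glia and 0 higher, while over all genes 18.2% were lower and 20% higher. The log2 differences ran from Clspn, Dscc1 and Dck (-1.61, -1.56 and -1.203) to Pold4, Rrm2b and Chtf8 (0.20, 0.18 and 0.09), with Tk2 and Samhd1 at -0.43 and -0.11.

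Between the S and G2/M ranges 6 of 38 were higher and 3 lower, while over all genes 3.44% were higher and 4.34% lower. Dbf4, the activator of the Cdc7 kinase, was lower in the S range, at 31.1 and 34.8 CPM against 171 and 131 CPM (log2 -2.23 ± 0.19, adjusted p = 1.2e-05), as were Asf1b and Rnaseh2c (-1.07 and -0.75). Dscc1 was at 25.2 and 33.6 CPM against 9.91 and 7.87 CPM (log2 1.67 ± 0.31, adjusted p = 0.00615), and Dna2 and Donson differed by 1.203 and 1.07, of which Dna2 passed. Rrm2b, Tk2 and Samhd1 did not pass (0.49, 0.44 and 0.01). In neither-range progenitors against neurons 7 of 36 were higher and 6 lower, not above the 24.5% higher and 25% lower over all genes. Rnaseh2b was at 74.3 and 75.8 CPM against 18.99 and 19.6 CPM (log2 1.84 ± 0.11, adjusted p = 6.0e-07) and Cdc7 at 2.72 and 4.04 CPM against 14.1 and 15.1 CPM (log2 -2.23 ± 0.29, adjusted p = 1.3e-04), and Topbp1 and Dbf4 were lower (-0.97 and -0.95). Ticrr and Gmnn had log2 differences of 1.43 and 1.01 and did not pass, and Tk2, Rrm2b and Samhd1 had -0.34, 0.23 and 0.58. In newborn against layer neurons 3 of 36 were higher and 3 lower, near the 8.75% higher and 12.2% lower over all genes. Clspn was at 2.91 and 4.04 CPM against 1.73 and 1.08 CPM (log2 1.26 ± 0.37, adjusted p = 0.046) and Cdc7, Dctpp1 and Pole4 were at -0.54, -0.41 and -0.38. Gmnn, Wdhd1, Tk2, Rrm2b and Samhd1 had log2 differences of 0.62, 0.56, -0.13, -0.17 and 0.18 there.

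The 12 genes of the E2F and Rb family, which regulate S-phase genes, did not move as a block. In radial glia against neurons 9 were higher, led by E2f2 and Rbl1 (3.98 and 3.75), in intermediate progenitors 8, and in eminence progenitors 8 with 1 lower, which was Rbl2 (-0.60). Over all genes 31.8, 26.8 and 26.5% were higher in these comparisons, and 32.1, 28.2 and 26.8% lower. Between radial glia and intermediate progenitors 5 were higher and 3 lower, while over all genes 21.8% were higher and 19.1% lower. E2f5, a repressor-type E2F, was higher in radial glia, at 91.3 and 79.4 CPM against 29.98 and 24.99 CPM (log2 1.56 ± 0.16, adjusted p = 6.3e-06), whereas the activator E2f1 was lower, at 25.2 and 21.2 CPM against 45.3 and 41.6 CPM (log2 -0.97 ± 0.17, adjusted p = 7.3e-04). Between the ranges the same pair was called, E2f1 being higher in the S range, at 79.1 and 73.95 CPM against 20.5 and 21.3 CPM (log2 1.84 ± 0.20, adjusted p = 1.0e-04), and E2f5 lower, at 47.5 and 34.2 CPM against 106 and 105 CPM (log2 -1.401 ± 0.19, adjusted p = 5.0e-04). That pair compares with 3.44% of all genes higher in the S range and 4.34% lower. Against eminence progenitors E2f5 was higher in radial glia (1.06) and 8 were lower, E2f2 most (-2.34), while over all genes 20% were higher and 18.2% lower. In neither-range progenitors 6 of 11 were higher and 2 lower, and in newborn neurons 2 of 11 were higher and 1 lower, E2f7 being among the lower in both (-3.26 and -1.19). Over all genes 24.5% were higher and 25% lower in neither-range progenitors, and 8.75% higher and 12.2% lower in newborn neurons.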

How the data were processed

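Per the labels, libraries were made with the 10x Genomics single-cell 3' chemistry, and the authors counted reads with Cell Ranger 7.0.0 on mm10. What the authors deposited are whole-number UMI counts, not normalized, and whether intronic reads were counted is not given in the sources used here. Doublets were scored against simulated ones (scanpy 1.11.5), counts were summed per class and library, and sums were compared with edgeR 4.0.16 (TMM, quasi-likelihood test, Benjamini-Hochberg adjustment over all genes tested). DESeq2 1.42.0 was an alternative, and the fit was tested on simulated data. In each comparison the text names the member with the largest and the smallest log2 difference of each role group, members against the main direction, and a list fixed in the plan; of further replication genes it names Rrm2b, Tk2, Samhd1 and the 3 largest and 3 smallest differences, except for a gene that is not reported here. Deviations from the class means of the same library correlated at r = 0.18 to 0.35 across genes, so libraries were also used as a replicate block. The members and lists were chosen with earlier results of these data known. P-values rest on 2 libraries.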

Additional observations from a re-analysis of the deposited data

How the results depend on the processing

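The counts of called members were recomputed with the library as a replicate block, with DESeq2, without TMM scaling, without a filter on low counts, with doublets kept, and under a stricter cell filter and gate. The libraries pair the classes because the classes compared come from the same library. For radial glia against intermediate progenitors, DESeq2 called 6 members, cells of the S range alone 4, of neither range 2 and of the G2/M range 11, all of these 11 lower in radial glia. In the G2/M range 31 of 40 tested members turned in sign. Those called there or in all cells were Mcm3 (-0.47), Mcm5 (-0.65), Cdc45 (-2.01), Gins2 (-0.057), Pola1 (-0.56), Prim1 (-1.17), Pold1 (-0.44), Pole2 (-0.82), Pcna (-0.83), Pclaf (-1.46), Rfc2 (-0.61), Rfc4 (-0.90), Rpa2 (-0.31), Fen1 (-1.12), Lig1 (-0.49), Tyms (-1.03), Tk1 (-0.79) and Dut (-1.69), and in neither range, where 6 of 25 turned, Gins2 (-0.39). Against eminence progenitors the G2/M range gave 15 calls and neither range 1, and in neither range 6 of 11 turned, of which Mcm7, Rpa3 and Dut had been called in all cells (0.022, 0.71 and 0.20). These sums hold fewer cells and test fewer members, and the cause was not tested further. For neither-range progenitors against neurons DESeq2 called 4, and for newborn against layer neurons the replicate block called 8 and DESeq2 0. Without TMM scaling the share of higher among called genes rose from 49.8 to 59.8% for radial glia, from 48.7 to 57.8% for intermediate progenitors and from 49.5 to 59.1% for neither-range progenitors. With 1 library no count could be given, since no residual degrees of freedom remain. Among S-range cells of radial glia and intermediate progenitors the block called 9 members, and in the interaction of class and range 3. In the other fits within a range it moved no count by over 1.5 times. Beyond the calls named here and in the report, the block changed no call of a member in the comparisons of whole classes and between ranges. At 4000 in place of 2000 UMIs per cell, radial glia showed 2.91 in place of 2.99 times the members of layer neurons. Genes with few UMIs, such as Cdc6, Mcm10 and Tk1 in neurons, allow no firm size.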

Other observations

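Pola1 had a higher level in interneurons and striatal neurons than in layer excitatory neurons. It was at 129.7 and 174 CPM in interneurons of the medial eminence type, 216 and 183 CPM in those of the caudal type, 74.4 and 70.2 CPM in striatal neurons and 38.8 and 40.1 CPM in layer excitatory neurons. Without cells past the cell-cycle limits it was at 132 and 180.1 CPM in the medial type, 128 and 104 CPM in the caudal type and 37.5 and 41.1 CPM in layer excitatory neurons. These values are given as a description, with no test.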
